A study of Mus musculus with 6 samples.

Results

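Circular RNAs (circRNAs, here also called rings) of Rims1 and Rims2 were described in the hippocampus of stressed and control mice. The members are all circRNAs of the deposited table whose host list holds the Ensembl identifier of Rims1 (ENSMUSG00000041670) or Rims2 (ENSMUSG00000037386). There were 25 of them among 10652 circRNAs, 12 from Rims1 and 13 from Rims2. All mice were adult male C57BL/6J animals of 8 to 10 weeks, housed alike and assigned at random. The Control group (n = 3 libraries) had no stressor named in the labels. The chronic unpredictable stress (CUS) group (n = 3 libraries) went through 4 weeks of randomly ordered stressors, 2 to 3 a day, such as restraint, cold swimming and loss of food, water or bedding. The samples are called independent in the series text, but how many mice each holds is not given there, and p-values therefore cover only the spread among these libraries.

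RIM proteins, the products of the Rims genes, are scaffolds of the presynaptic active zone, the patch of membrane where synaptic vesicles fuse. They bind vesicle-bound Rab3, activate the Munc13 priming proteins and hold calcium channels close to docked vesicles, and RIM1 is known for its part in presynaptic plasticity of hippocampal mossy fibre and Schaffer collateral synapses. A circRNA forms when a downstream splice donor joins an upstream acceptor, so that exons of the host close into a ring without a free end. Rims1 and Rims2 are long genes with many exons, and their rings are well known from brain tissue.

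In GENCODE vM21 on GRCm38, Rims1 lies on the minus strand of chromosome 1, from 22286251 to 22805994, and spans 519744 bases. Rims2 lies on the plus strand of chromosome 15, from 39198261 to 39684372, and spans 486112 bases. Coding transcripts have up to 37 exons in Rims1 and up to 27 in Rims2. Of the 12 Rims1 circRNAs, 10 were classed as exonic and 2, mmu_circRNA000084 and mmu_circRNA000086, as intronic. The 13 Rims2 circRNAs were all exonic. Each of the 25 named a single host. Only 40 of 3772 hosts had more circRNAs than Rims2 and 58 had more than Rims1, where the median host had 2. The circRNAs were used here without coordinates or sequences, so which exons each ring holds is not analysed here.

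Levels below are 10 to the deposited log10 value, in a unit that the table does not name, with a circRNA listed at 0 kept at 0. Ring lengths were not used, so levels of different rings are given as deposited and without a length correction. In the 6 libraries, 3991 to 4606 circRNAs were above 0, fewer in each CUS library (3991, 4238 and 4273 in replicates 1 to 3) than in any Control library (4606, 4526 and 4329). The lowest level above 0 was 41.0, 42.9 and 45.2 in controls (replicates 1 to 3) and 50.1, 45.7 and 46.2 under stress (CUS replicates 1 to 3). This library minimum was thus higher in each CUS library than in any Control library. The number of reads behind a level is unknown, so no counting error is given. All 13 hippocampal neuron markers on the list used here were hosts of circRNAs, as were 4 of 7 interneuron, 4 of 6 astrocyte, 5 of 7 oligodendrocyte, 0 of 5 microglial and 1 of 6 neighbouring tissue markers. Per the labels, RNA was selected for poly(A) before sequencing, while a ring carries no poly(A) tail. Its part in the levels below was not tested. In bulk tissue, fewer cells of a type and less RNA per cell cannot be told apart.

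Rims1 had 2 rings that were above 0 in all 6 libraries, mmu_circRNA000072 and mmu_circRNA000073. The level of mmu_circRNA000072 was 893, 963 and 333 in controls (replicates 1 to 3) and 749, 1649 and 674 under stress (CUS replicates 1 to 3). The groups overlapped, with the highest library in CUS and the lowest in Control. The level of mmu_circRNA000073 was 377, 998 and 468 in controls and 1359, 543 and 133 under stress. Here CUS held both the highest and the lowest library. Together these rings made up 31.5%, 67.2% and 78.6% of the summed Rims1 level in controls (replicates 1 to 3) and 67.9%, 94.1% and 49.6% under stress (CUS replicates 1 to 3). The share was lowest in Control replicate 1, the library with the most Rims1 rings.

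Another 2 Rims1 rings were above 0 in 4 libraries. The level of mmu_circRNA000083 was 579, 529 and 0 in controls and 0, 137 and 745 under stress, so each group had a library at 0. In CUS replicate 3 it was the most abundant Rims1 ring, with 45.7% of the sum. The low-level mmu_circRNA000082 was at 171, 80.7 and 144 in controls and 0, 0 and 76.1 under stress. It was the only one of the tested members whose groups did not overlap, at 80.7 in Control replicate 2 against 76.1 in CUS replicate 3. These levels are 32 and 28 steps, where a step is the smallest unit by which levels of a library differ. The size of a step differs between libraries.

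The other 8 Rims1 rings were above 0 in 1 or 2 libraries. Some of them reached levels near those of the recurrent rings. mmu_circRNA000071 was at 883 in Control replicate 1 alone, and mmu_circRNA000075 was at 885 in CUS replicate 1 alone. Both intronic rings appeared in Control replicate 1 alone, mmu_circRNA000084 at 401 and mmu_circRNA000086 at 314. mmu_circRNA000076 (210.04 and 74.5) and mmu_circRNA000078 (203 and 70.6) were each in 2 Control libraries, mmu_circRNA000081 was in 1, and mmu_circRNA000077 was at 108 in Control replicate 2 and 112 in CUS replicate 1. Rings outside the test thus made up 49.9% of the Rims1 sum in Control replicate 1 and 32.1% in CUS replicate 1, but none of it in CUS replicates 2 and 3.

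**Figure D1:**
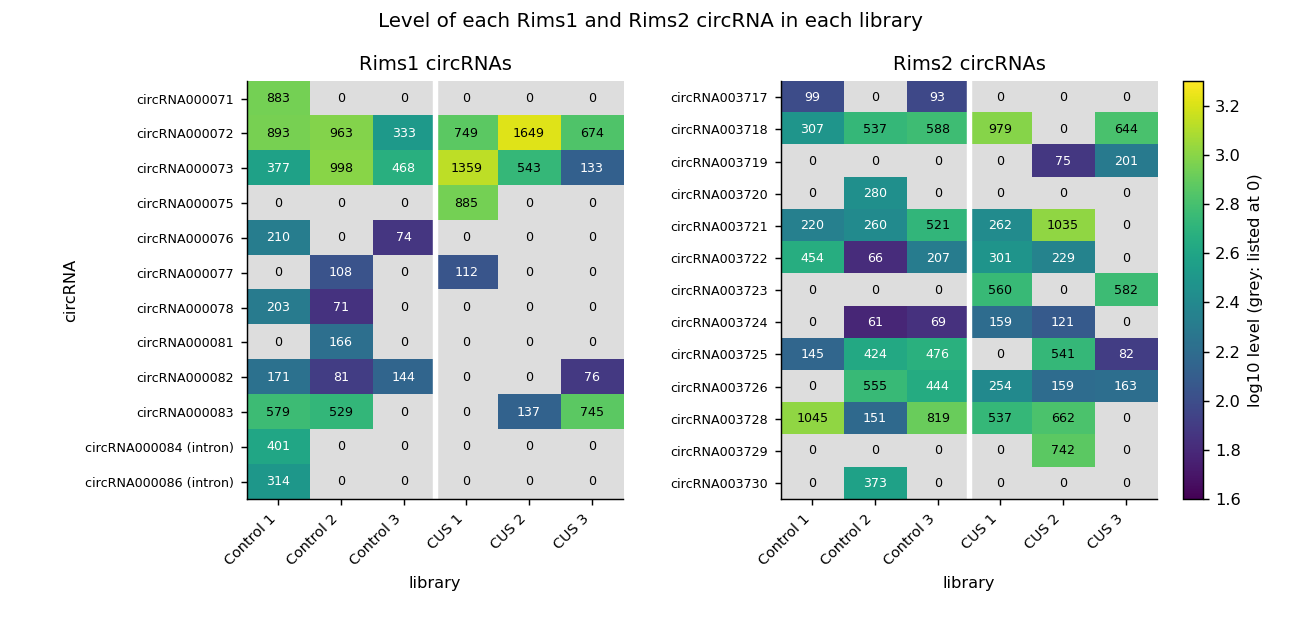
Level of each of the 12 Rims1 (left) and 13 Rims2 (right) circRNAs in the 3 Control and 3 CUS libraries, with colour on a log10 scale, the level printed in each cell and grey for a circRNA listed at 0. mmu_circRNA000072 and mmu_circRNA000073 are the 2 rows with no grey cell, and no Rims2 row is without one.

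No Rims2 ring was above 0 in all 6 libraries, but 6 of 13 were above 0 in 5. Of these, mmu_circRNA003728 had the highest mean, at 1045, 151 and 819 in controls and 537, 662 and 0 under stress. mmu_circRNA003718 was at 307, 537 and 588 in controls and 979, 0 and 644 under stress. Each was thus at 0 in a different CUS library and at 537 or more in the others of that group. mmu_circRNA003721 was at 219.7, 259.7 and 521 in controls and 262, 1035 and 0 under stress. mmu_circRNA003722 was at 454, 65.6 and 207 in controls and 301, 229 and 0 under stress.

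CUS replicate 3 was the library at 0 for 3 of these 6 rings, mmu_circRNA003728, mmu_circRNA003721 and mmu_circRNA003722. Over all 713 circRNAs above 0 in 5 libraries, CUS replicate 3 was the library at 0 for 20.2%, the highest share of the 6 libraries. mmu_circRNA003725 was at 145, 424 and 476 in controls and 0, 541 and 81.5 under stress. mmu_circRNA003726 was at 0, 555 and 444 in controls and 254, 159 and 163 under stress, and was the only Rims2 ring above 0 in all 3 CUS libraries. The weak mmu_circRNA003724, above 0 in 4 libraries, was at 0, 60.5 and 69.2 in controls and 159, 121 and 0 under stress. The groups overlapped for all 7 of these Rims2 rings.

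The other 6 Rims2 rings split evenly between the groups. mmu_circRNA003717, mmu_circRNA003720 and mmu_circRNA003730 were above 0 in Control alone, in 2, 1 and 1 libraries. mmu_circRNA003719, mmu_circRNA003723 and mmu_circRNA003729 were above 0 in CUS alone, in 2, 2 and 1 libraries. Of these 6, mmu_circRNA003723 had the highest mean. It was at 560.1 in CUS replicate 1 and 582 in CUS replicate 3, where it gave 34.8% of the Rims2 sum, and was listed at 0 in the other four libraries. mmu_circRNA003729 reached the highest level in a single library, at 742 in CUS replicate 2, and was listed at 0 elsewhere. Rings outside the test made up 4.36%, 24.1% and 2.89% of the Rims2 sum in controls and 18.4%, 22.9% and 46.8% under stress.

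The ring that led each host changed from library to library. For Rims1 it was mmu_circRNA000072 in 2 libraries, mmu_circRNA000073 in 3 and mmu_circRNA000083 in 1. For Rims2 it was mmu_circRNA003728 in Control replicates 1 and 3, mmu_circRNA003726 in Control replicate 2, mmu_circRNA003721 in CUS replicate 2 and mmu_circRNA003718 in CUS replicates 1 and 3. The leading share ran from 22.2% to 70.8% for Rims1 and from 20.5% to 46.1% for Rims2. No 2 rings of the same host had near-equal levels across libraries: the closest pair differed by 28 steps in its most different library for Rims1 and by 37 for Rims2.

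**Figure D2:**
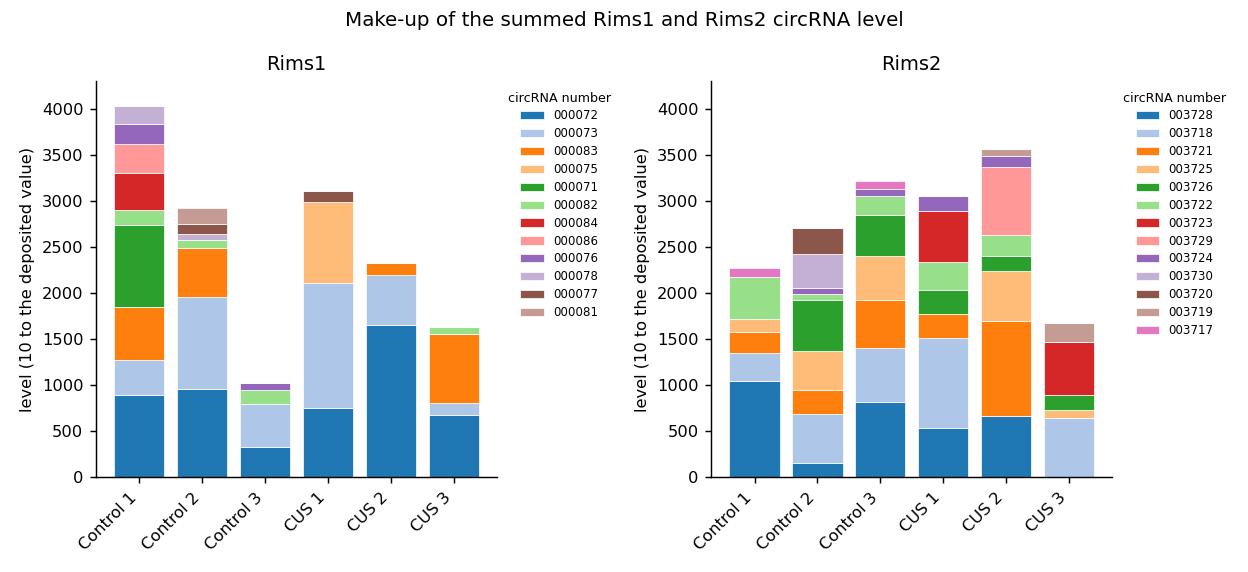
Summed Rims1 (left) and Rims2 (right) circRNA level in each library on a linear axis, stacked by circRNA, with the ring of highest mean at the bottom and circRNAs named by the digits of their identifiers. Sums range from 1019 to 4032 for Rims1 and from 1672 to 3564 for Rims2, and the colours that fill a bar differ between replicates of the same group.

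Recurrence across libraries was set beside that of all circRNAs. Of the 25 members, 2 (8%) were above 0 in all 6 libraries, against 7.55% of all circRNAs, and 8 (32%) were above 0 in a single library, against 36.9%. In all 3 Control libraries 8 members (32%) were above 0, against 14.5% of all circRNAs. In all 3 CUS libraries 3 members (12%) were, against 12.4%. Members above 0 in Control alone numbered 9 (6 of Rims1 and 3 of Rims2) and those in CUS alone 4 (1 and 3). Of all circRNAs, 27.0% were in Control alone and 23.4% in CUS alone.

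To ask whether single rings differ with stress, levels were compared with limma on log2(level + 45.5), a scale that understates changes of low rings. A circRNA was tested when above 0 in at least 3 of 6 libraries, which 11 of the 25 members passed, 4 of Rims1 and 7 of Rims2. No member passed at an adjusted p under 0.05, where the share called among all 3896 circRNAs tested was 0%. No member had an unadjusted p under 0.05 either, against 6.01% of those tested (234 circRNAs). Fewer passed this unadjusted threshold when any library was left out, from 94 without Control replicate 1 to 135 without CUS replicate 3, with fewer circRNAs tested as well (3086 to 3211). The smallest p was that of mmu_circRNA000082, with a log2 difference (CUS minus Control) of -1.45 (SE 1.01, limma adjusted p = 0.872). Without CUS replicate 3 its difference was -1.93, with a limma unadjusted p of 0.0495 and an adjusted p of 0.686. The CUS libraries left in that fit are all at 0 for this ring. Groups that do not overlap, as in this ring, were found in 10.9% of all circRNAs tested.

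The most abundant Rims1 ring, mmu_circRNA000072, had a log2 difference of 0.48 (SE 0.75), and mmu_circRNA000073 one of -0.21 (SE 0.92). For Rims2, the differences were -1.10 (SE 1.16) for mmu_circRNA003728, -0.67 (SE 1.14) for mmu_circRNA003718, -0.53 (SE 1.23) for mmu_circRNA003721 and -1.26 (SE 1.30) for mmu_circRNA003725. Each of these differences was smaller than its standard error. The same held for the 4 tested rings not yet given, mmu_circRNA000083 (-0.44), mmu_circRNA003722 (-0.57), mmu_circRNA003724 (0.50) and mmu_circRNA003726 (-0.02). Of the 6 Rims2 rings above 0 in 5 libraries, 5 had their 0 in CUS. When that library was left out, the sign turned for mmu_circRNA003728 (to 0.17), mmu_circRNA003718 (to 0.73), mmu_circRNA003721 (to 0.69) and mmu_circRNA003722 (to 0.35), while mmu_circRNA003725 stayed below 0 (at -0.40). Of the 11 tested members, 2 had a fitted value above 0 and 9 below 0, where 52.8% of all circRNAs tested were below 0. The median was -0.53 against -0.12 over all tested. These figures cover only members that passed the filter.

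Summed over their rings, Rims1 and Rims2 each had levels that overlapped between the groups. The Rims1 sum was 4032, 2917 and 1019 in controls (replicates 1 to 3) and 3104, 2329 and 1628 under stress (CUS replicates 1 to 3). Control held both the highest and the lowest library, so the CUS values lay inside the Control range. As means this was 2656 ± 1523 in controls and 2354 ± 738 under stress (SD, n = 3 each). The log2 difference fitted by limma over 2227 hosts was -0.01 (SE 0.48, adjusted p = 0.997), with a 95% interval from -0.98 to 0.96, or 0.506-fold to 1.94-fold. Without the 2 intronic rings the Rims1 sum was 3317 in Control replicate 1 and the same in the other libraries.

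The Rims2 sum was 2269, 2705 and 3218 in controls and 3051, 3564 and 1672 under stress. Here CUS held both the highest and the lowest library. Means were 2731 ± 475 in controls and 2762 ± 979 under stress (SD, n = 3 each), and the limma log2 difference was -0.04 (SE 0.43, adjusted p = 0.983), with a 95% interval from -0.90 to 0.82, or 0.536-fold to 1.77-fold. The mean was thus slightly higher and the fitted log2 value slightly below 0. Folds are on the scale of level + 45.5. Changes within these intervals are compatible with the fit, and the intervals are not limits of detection. They also rest on limma's trend setting for the variance. Without it the SE was larger, at 0.77 for Rims1 and 0.67 for Rims2. Of all hosts tested, 0% passed at an adjusted p under 0.05 and 5.7% had an unadjusted p under 0.05. Combined, the rings of both genes summed to 6301, 5622 and 4237 in controls and 6156, 5893 and 3299.7 under stress, with an exact two-sided permutation p of 0.8 (adjusted p = 1). For 3 against 3 libraries the smallest p this test can give is 0.1.

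The Rims1 sum was highest in Control replicate 1 and the Rims2 sum in CUS replicate 2. The ratio of the Rims2 to the Rims1 sum was 0.563, 0.927 and 3.16 in controls and 0.983, 1.53 and 1.03 under stress. It was lowest in Control replicate 1 and highest in Control replicate 3, so that the CUS values lay inside the Control range. The within-group spread on the log2 scale was 0.80 for the Rims1 sum and 0.45 for the Rims2 sum. Each spread was larger than the difference between the groups.

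**Figure D3:**
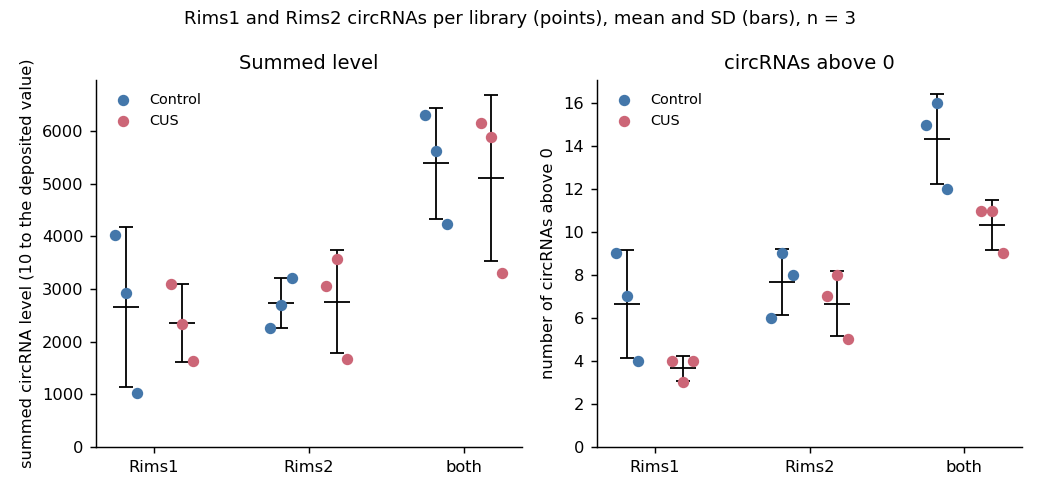
Left, summed level of Rims1, Rims2 and both, and right, number of their circRNAs above 0, in each Control (blue) and CUS (red) library, with points for libraries and black bars for the mean and SD (n = 3). The summed levels overlap between groups, and the number for both genes runs from 12 to 16 in Control and from 9 to 11 in CUS.

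The number of members above 0 was compared between the groups. Rims1 had 9, 7 and 4 rings above 0 in controls and 4, 3 and 4 under stress (exact two-sided permutation p = 0.3). Rims2 had 6, 9 and 8 in controls and 7, 8 and 5 under stress (exact two-sided permutation p = 0.6). Together they had 15, 16 and 12 in controls and 11, 11 and 9 under stress, so the groups did not overlap, with an exact two-sided permutation p of 0.1, the smallest possible. Adjusted over the 8 values tested in this way, this p was 0.8. The number of all circRNAs above 0 did not overlap either, at a mean of 4487 in controls and 4167 under stress. With all levels under 50.1, the highest of the library minimums, set to 0, the numbers for all circRNAs were 4553, 4490.0 and 4316 in controls and 3991, 4219 and 4249 under stress. Those for Rims1 and Rims2 could not change, since their lowest level above 0 was 60.5 (mmu_circRNA003724 in Control replicate 2). For these counts the common limit is therefore no check.

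The mean level per Rims1 ring above 0 was 448, 417 and 255 in controls and 776.1, 776.3 and 407 under stress. CUS replicate 3 lay within the Control range and the other CUS libraries above it. Per Rims2 ring it was 378, 301 and 402 in controls and 436, 445 and 334 under stress. Over all circRNAs it was 440.4, 453 and 469 in controls and 502, 480.06 and 466 under stress. The summed level of 4 astrocyte marker hosts did not overlap between groups, at 1415, 1525 and 1085 in controls and 2642, 2243 and 1709.7 under stress, where 11.4% of single hosts tested did not overlap. The 4 hosts did not move together. Gpc5 was lower in each CUS library, at 377, 1056 and 801 in controls and 348, 296 and 179 under stress. The others overlapped between groups, with Slc1a2 at 251, 192 and 0 against 1020, 0 and 1055, Slc4a4 at 727, 277 and 285 against 1274, 1829 and 228, and Gli3 at 60.4, 0 and 0 against 0, 118 and 247. Slc1a3 and Aldh1l1 were hosts of no circRNA used here. The summed level of the 13 hippocampal neuron hosts overlapped, at 20849, 23061 and 25611 against 21179, 21059 and 18899. These hosts did not move together either. Of 11 tested, 5 had a fitted value above 0 and 6 below. A limma unadjusted p under 0.05 was found for 5, against 5.7% of all hosts tested, and none passed after adjustment. The marker lists were chosen with earlier results of these data known, so this count is no independent evidence about such markers. Of the 5 hosts with an unadjusted p under 0.05, Rfx3, Grin2b and Cpne4 were above 0, and Tenm3 and Grm5 below. Rfx3 was at 1195, 1788 and 1426 in controls and 4395, 2910 and 3158 under stress. Tenm3 was at 3942, 3926 and 6936 against 2084, 2676 and 2177. Sums also overlapped for the 5 oligodendrocyte hosts, at 1374, 1523 and 2040.2 against 2989, 2038.7 and 2471. Those of the 4 interneuron hosts did as well, at 2219, 4566 and 2668 against 3455, 7203 and 1938. Of 3 tested interneuron hosts, 2 had a limma unadjusted p under 0.05, Adarb2 above 0 and Galntl6 below, and neither passed after adjustment. The part of these marker levels, of the library minimums and of the number of circRNAs per library in the Rims1 and Rims2 counts was not tested.

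The share of the leading ring was also compared. The share of mmu_circRNA000072 in the Rims1 sum was 22.2%, 33.0% and 32.6% in controls and 24.1%, 70.8% and 41.4% under stress (exact two-sided permutation p = 0.4). The share of mmu_circRNA003728 in the Rims2 sum was 46.1%, 5.59% and 25.5% in controls and 17.6%, 18.6% and 0% under stress (exact two-sided permutation p = 0.4). Both shares overlapped between groups and both adjusted p-values were 0.8.

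The genes that work with RIM at the release site were set beside Rims1 and Rims2. Of 66 listed genes, 34 were hosts of 190 circRNAs and 26 had a host sum that could be tested. None passed limma's test at an adjusted p under 0.05, where 0% of all 2227 hosts tested did. An unadjusted p under 0.05 was found for 1 host, against 5.7% of all hosts tested. Fitted values were above 0 for 11 hosts and below 0 for 15, where 52.2% of all hosts tested were below 0, with a median log2 difference of -0.03 against -0.06 over all hosts. Only 4 of the 34 hosts had more circRNAs than Rims1 or Rims2.

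Among the 6 tested scaffold hosts, 4 had a fitted value above 0 and 2 below. Rimbp2, whose product binds both RIM and calcium channels, was at 2066, 472 and 1508 in controls and 271, 594 and 454 under stress (log2 difference -1.36, SE 0.81, limma adjusted p = 0.918). Erc2, a RIM-binding scaffold gene, was at 770.1, 1687 and 644 against 881, 3305 and 731, and Erc1 at 198, 182 and 247 against 407, 0 and 699. Ppfia2, a liprin gene, had a log2 difference of 2.10 (SE 1.47), at 0, 164 and 0 in controls and 1527, 428 and 0 under stress. The other RIM genes, Rims3 and Rims4, were hosts of no circRNA used here.

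Of 5 tested priming hosts, 1 had a fitted value above 0 and 4 below. Unc13a, which encodes Munc13-1, the priming protein that RIM activates, was at 0 in controls and at 0, 481 and 359 under stress and was not tested. Unc13c had a log2 difference of -2.29 (SE 1.38) and Cadps one of -0.46 (SE 0.34). Unc13c was at 536, 0 and 1037 in controls and 0, 0 and 73.4 under stress. The summed level over the 8 priming hosts did not overlap between groups, at 11501, 11051 and 11046 in controls and 6931, 9292 and 8989 under stress. No test was run on this sum, and groups that do not overlap were found in 11.4% of single hosts tested. Among the 8, Cadps alone did not overlap, at 5268, 4788 and 5633 in controls and 3629, 3677 and 4042 under stress. The other priming hosts overlapped, and Cadps2 had a fitted value above 0 (log2 difference 0.98, SE 1.56). Cadps2 was listed at 0 in Control replicate 2 and CUS replicate 1.

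In the Rab3 cycle, Rab3gap2 had a log2 difference of 1.73 (SE 1.33) and Rab3ip of -0.11 (SE 0.81), while Rab3a was host of no circRNA used here. Of 5 tested calcium channel hosts, 2 had a fitted value above 0 and 3 below. Cacna1a, the P/Q-type channel subunit gene, was at 3389.6, 3807 and 3788 in controls and 2577, 2843 and 2647 under stress (log2 difference -0.44, SE 0.39, limma adjusted p = 0.918). Cacna2d3 was the host with the unadjusted p under 0.05 (log2 difference 3.53, SE 1.45, limma adjusted p = 0.737), and Cacna2d1 had a difference of -1.62 (SE 0.85) with CUS replicate 2 listed at 0. Of 3 SNARE and sensor hosts, 2 were above and 1 below 0, with Syt1, a calcium sensor gene, at -0.37 (SE 0.50) and Syt7 at 0.61 (SE 1.35). Of 5 presynaptic organizer hosts 1 was above and 4 below, with Nrxn2 at -1.42 (SE 1.14) and Ptprs at 0.85 (SE 1.42). The sum was 0 for Nrxn2 and Syt7 in CUS replicate 3, and for Rab3gap2 in Control replicate 1. For Ptprs it was 0 in Control replicates 1 and 2 and in CUS replicate 2.

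**Figure D4:**
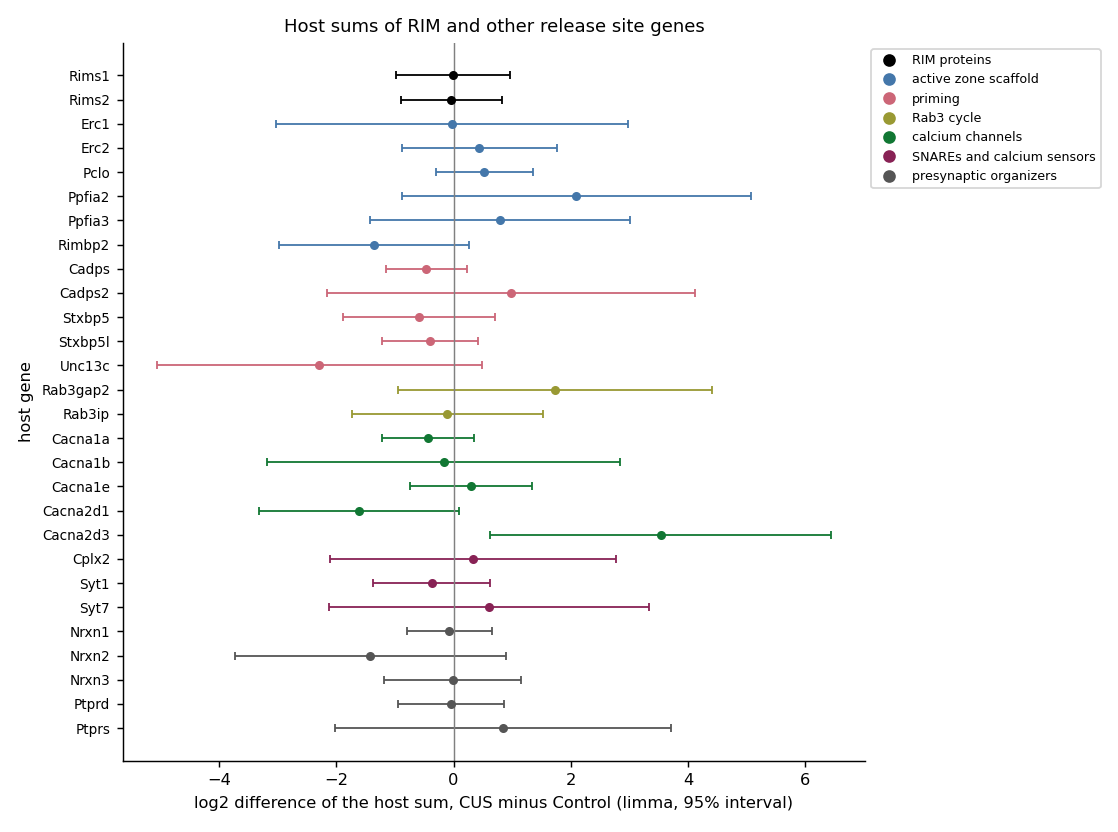
Log2 difference of the host sum (CUS minus Control, horizontal axis) with its 95% interval from limma for Rims1, Rims2 and the 26 tested release site hosts, coloured by role. Rims1 and Rims2 lie at -0.01 and -0.04, and the interval excludes 0 for Cacna2d3 alone, before adjustment. The Cacna2d3 sum was 0 in Control replicates 1 and 2.

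Hosts were ranked by how closely their profile over the 6 libraries followed that of each Rims gene, as the root mean square difference of centred log2(sum + 45.5) values among 919 other hosts above 0 in every library. Closest to Rims1 were Plekha5 (0.18), Ctif (0.24) and Bcas1 (0.27), all lowest in Control replicate 3 as Rims1 was. Closest to Rims2 were Atp9b (0.15), Hnrnpu (0.15) and Gria2 (0.16), an AMPA receptor subunit gene, all lowest in CUS replicate 3. The difference between Rims1 and Rims2 was 0.75, which placed Rims2 at rank 259 for Rims1 and Rims1 at rank 420 for Rims2. These values share the 6 libraries and are descriptions.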

How the data were processed

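The authors deposited 1 table of log10 values per circRNA and library, with Ensembl host identifiers and a class. The header names no unit. The submitters' processing notes list mm9, StringTie, DESeq and edgeR but not what each was used for. The tool that called circRNAs is, in the sources used here, not given. After taking 10 to each value, 100% of values under 300 steps lay within 0.05 of a whole multiple of a library-specific step. The lowest value was 17 steps in each library.

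Hosts were matched by identifier to GENCODE vM21 (4467 of 4483 matched), and levels were summed per host. A circRNA with several hosts counted for its only protein-coding host, and 203 such circRNAs and 658 intergenic ones were left out of sums. Each comparison used limma 3.58.1 in R 4.3.3 (eBayes with a trend) on log2(level + 45.5), the median of the 6 library minimums above 0, with Benjamini-Hochberg adjustment over all circRNAs or hosts above 0 in at least 3 libraries. The fit was run on simulated levels with large known changes and no value at 0, which does not show its power on these data. Single values were compared with exact permutation tests. Python 3.11.15, pandas 2.3.3, scipy 1.17.1 and matplotlib 3.10.9 were used.

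Groups come from sample titles. Members, lists and tests were chosen with earlier results of these data known. All 25 members were described, with values in every library for those above 0 in at least 3 libraries. In each role group of the release site list, the 2 tested hosts of smallest p and 6 genes chosen by name were to be reported, and the 3 hosts of closest profile for each Rims gene. Alternatives were other pseudocounts, filters, scalings, host rules and variance settings, the replicate block, leaving out each replicate, and 1 detection limit for all libraries, which was added after seeing the data.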

Additional observations from a re-analysis of the deposited data

How the results depend on the processing

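limma called 0 circRNAs and 0 hosts at an adjusted p under 0.05 in every setting run, the replicate block and each left-out replicate included. At an unadjusted p under 0.05 there were 234 circRNAs and 127 hosts, and 215 and 126 with the replicate block. These counts were 94 to 135 and 80 to 105 when a replicate was left out, and 32 of 804 circRNAs and 53 of 920 hosts when only those above 0 in all 6 libraries were tested, each with fewer features tested. Replicate numbers are shared by the groups but did not pair the libraries (correlations of same-numbered deviations of -0.01, -0.03 and -0.02). The log2 difference of the Rims1 sum was between -0.58 and 0.39 when a replicate was left out, and 0.0067 with every library scaled to the same summed level. That of the Rims2 sum was between -0.25 and 0.28. The median over the release site hosts, -0.03 with all libraries, was between -0.35 and 0.14. As differences of linear sums, Rims1 ran from -1121 to 386, Rims2 from -369.5 to 576 and both together from -846 to 637, so the sign of each rests on single libraries. Among single rings, leaving out a replicate moved mmu_circRNA000073 between -0.91 and 0.58, mmu_circRNA000083 between -1.68 and 0.58, mmu_circRNA003718 between -1.52 and 0.73, mmu_circRNA003721 between -1.60 and 0.69, mmu_circRNA003722 between -1.13 and 0.35, mmu_circRNA003726 between -1.21 and 0.65, and mmu_circRNA003728 between -1.87 and 0.17. With no change of sign, mmu_circRNA000072 (0.48 with all libraries) moved between 0.02 and 0.73, mmu_circRNA003724 (0.50) between 0.07 and 1.17, mmu_circRNA003725 (-1.26) between -2.24 and -0.40, and mmu_circRNA000082 (-1.45) between -1.93 and -1.22. The size for mmu_circRNA000082 moved more with the pseudocount, to -2.82 with 0.2 times and -0.51 with 5 times. The value of mmu_circRNA003726, listed at 0 in Control replicate 1 alone, was -0.02 in the main setting. It was 0.57 with 0.2 times the pseudocount and -0.24 with 5 times. The cause was not tested. The difference in the combined number of Rims1 and Rims2 rings above 0, -4 with all libraries, was between -5.17 and -3.17 when a replicate was left out. Scaling, a single host identifier, the pseudocount and the filters cannot move this number, and the block was not run on it. The common detection limit, which lies below every member level above 0, cannot move it either. With 3 libraries a group and no read counts, a value of 0 does not show that a ring is missing.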
